A study of Homo sapiens with 12 samples.

Results

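RNA of PLC5 cells with GALNT1 knockdown (siGALNT1) was compared with RNA of PLC5 cells given a non-targeting siRNA (siControl). The comparison takes 6 of the 12 arrays of the series, 3 titled PLC5 siGALNT1 and 3 titled PLC5 siControl. Of 50599 probes, the 38070 whose spots the scanner software called well above background on 3 or more of these 6 arrays were counted. PLC5 is an established cell line of human hepatocellular carcinoma (HCC). Both groups were grown in the same serum-containing medium and received 10 nM of siRNA with Lipofectamine RNAiMAX for 48 h before total RNA was taken. The GALNT1 siRNA was a commercial SMART pool, that is, a mixture of siRNAs, and the effects of its members cannot be told apart on these arrays. The other 6 arrays hold RNA of HA22T, another HCC line treated the same way. They entered the shared estimate of the spread and the comparison between the lines. The labels do not say whether the 3 arrays of a group came from separate cultures, so p-values measure only the spread between these arrays, which may be technical.

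GALNT1 encodes a Golgi enzyme that attaches the first sugar, N-acetylgalactosamine (GalNAc), to serine and threonine residues of proteins passing through the secretory pathway. A family of related GALNT enzymes shares this step with partly overlapping substrates, and other enzymes then extend the sugar into mucin-type O-glycans. Receptors such as EGFR can carry such glycans, and the study asked what the enzyme does to receptor signaling, migration and invasion of HCC cells. The arrays measure only RNA, so they show whether transcripts of the glycosylation pathway, of receptors and of downstream programs differed once GALNT1 RNA was low.

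Levels are given as log2 of the processed spot signal minus the 75th percentile of the array, so that 0 is the brightness of that percentile. A difference is the mean of siGALNT1 minus the mean of siControl on this scale. A gene was read from its brightest counted probe, and levels of different probes are not compared with each other. Between 39384 and 48873 of 58717 spots per PLC5 array were well above background, no spot was saturated (0), and 489 to 2309 spots per array were left out as non-uniform. Replicate arrays of a group had correlations of 0.963 to 0.987 over 28605 probes, and arrays of different groups had 0.963 to 0.990. The replicate 1 pair shared slide 1 with the HA22T arrays and the other 4 PLC5 arrays were on slide 2, so differences within each slide are given where they matter. Of 14 hepatocyte markers with a probe, 12 to 14 were well above background on each array. Their siControl means included 5.93 for KRT8, 5.77 for SERPINA1 and 4.62 for APOA1, as well as -4.21 for AFP and -3.64 for TTR. Markers of other cell types were also read above background, which limits them as a check. These were 10 to 12 of 14 leukocyte markers, with PTPRC at 5.10 and HLA-DRA on 0 arrays. Other PTPRC probes were not read alike, with A_33_P3364811 on 0 arrays and A_33_P3364821 on 1 per group. A_33_P3309526 had a value on 1 array per group, well above background. Further such markers were 5 to 7 of 9 endothelial, 8 to 14 of 16 neuronal and 4 to 8 of 13 fibroblast markers. ACTA2, COL1A2, COL3A1, PDGFRA and RGS5 were so on 0 arrays. The fibroblast markers COL5A1, DES and DCN were so on every array, and COL1A1 on 2 siControl and 3 siGALNT1 arrays. In bulk RNA, fewer cells of a kind and less RNA per cell cannot be told apart.

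GALNT1 was the gene with the largest difference in the PLC5 arrays. Its brightest probe (A_33_P3210218, transcript NM_020474) had levels of 0.87, 0.37 and 0.61 on siControl arrays 1 to 3 and of -1.93, -3.47 and -3.92 on siGALNT1 arrays 1 to 3. All 3 siGALNT1 arrays lay below all 3 siControl arrays, and knockdown read weakest on siGALNT1 array 1. The means were 0.62 ± 0.25 (SD, n = 3) and -3.10 ± 1.04 (SD, n = 3), which gives 13.2-fold lower RNA and a log2 difference of -3.72 (standard error 0.61, limma adjusted p = 1.00). The difference was -2.80 within slide 1 and -4.18 within slide 2. A two-sided exact permutation test of 3 against 3 arrays gave p = 0.1, the smallest it can give. The other GALNT1 probe (A_23_P306105) had a difference of -3.03 (standard error 0.49, limma adjusted p = 1.00) with no overlap between the groups. GALNT1 thus stayed above the threshold of 0.05 in spite of its size, with normexp background correction as the exception among the alternatives run (-3.38, limma adjusted p = 0.00900).

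Across all 38070 counted probes, 0 had a limma adjusted p below 0.05 and 508 (1.33%) had an unadjusted p below 0.05. A share of 0.05 would be expected if no probe differed, so this count is no excess. With normexp background correction 2 probes passed the adjusted threshold. The study used a fold change of 1.5 and a p of 0.05, and the criterion here was a fold change of at least 1.5 with an unadjusted p below 0.05. It was met by 113 probes that were higher (0.297%) and 379 that were lower (0.996%) with siGALNT1. Leaving out siGALNT1 array 3 moved the lower probes to 1239 and leaving out siControl array 1 moved them to 720. The lower probes came to 182 without siControl array 2 and to 226 without siGALNT1 array 1, and the higher probes to 228 without siGALNT1 array 2, 212 without siGALNT1 array 1, 197 without siControl array 3 and 189 without siGALNT1 array 3. Among 17436 genes with a value, 44 were higher (0.252%) and 99 lower (0.568%) past this criterion. The levels of the groups did not overlap for 376 genes that were higher (2.16%) and 224 that were lower (1.28%). If no gene differed and the arrays were interchangeable, this share would be about 0.1 over both directions, so these counts are no excess either. Just inside the criterion lay TBC1D22B at -0.59, and just outside it lay NEMP1 at 0.58 and HLA-DQA2 at 0.57.

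**Figure D1:**
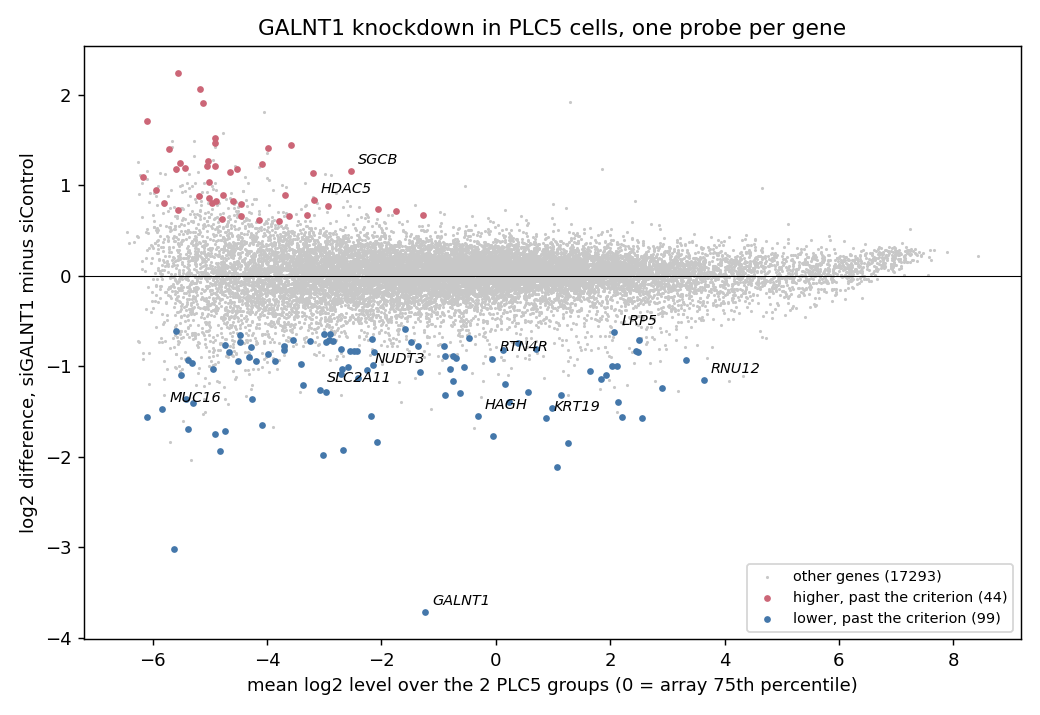
Log2 difference between siGALNT1 and siControl (y axis) against the mean log2 level over the PLC5 groups (x axis, 0 is the array's 75th percentile) for 17436 genes, 1 probe each, with the 44 higher and 99 lower genes past the criterion colored. GALNT1 lies apart at -3.72, and KRT19, drawn at -1.57, has no value on siGALNT1 array 3.

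Genes past the criterion were mostly dim or incompletely measured. Of the 14505 genes well above background on all 6 arrays, 0.29% were past it, against 4.92% of the 549 genes that were so on 3 arrays. Only 8 of the 44 higher and 34 of the 99 lower genes were well above background on all 6. Non-uniform spots had removed a value on 1 or more arrays for 924 genes (5.3%), and 40 of the 99 lower genes and 3 of the 44 higher genes were among these. Of these 40 lower genes, 39 had no value on siGALNT1 array 3 and 13 had none on siControl array 1. KRT19, a keratin of bile duct and progenitor cells, shows what this means. Its levels were 1.13, 2.01 and 1.85 with siControl and 0.00 and 0.18 on siGALNT1 arrays 1 and 2, a difference of -1.57 (standard error 0.38, limma adjusted p = 1.00). The spot left out on siGALNT1 array 3 read 2.07, above every siControl array, and with it the difference was -0.91. The small RNA gene SCARNA6 went from -2.12 to -1.05 and the antigen presentation regulator CIITA from -1.19 to -0.58 in the same way. With the left-out spots kept, 3 of these 40 lower genes and 1 of the 3 higher genes were still past the criterion. Among the 16512 genes with a value on all 6 arrays, 41 were higher and 59 lower past the criterion.

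Among the lower genes well above background on all 6 arrays, enzymes, a receptor and a transporter stood beside GALNT1. HAGH, the hydrolase that completes the glyoxalase pathway, had levels of 0.65, 0.33 and 0.39 with siControl and of -0.89, -0.89 and -1.51 with siGALNT1. The difference was -1.55 (standard error 0.28, limma adjusted p = 1.00), and it was -1.54 within slide 1 and -1.56 within slide 2. Every siGALNT1 array lay more than 1 unit below every siControl array. NUDT3, a hydrolase of inositol pyrophosphates, had levels of -1.57, -1.85 and -1.78 with siControl and of -2.78, -2.50 and -3.03 with siGALNT1, a difference of -1.04 (standard error 0.27). RTN4R, the Nogo receptor, had levels of 0.60, 0.33 and 0.25 with siControl and of -0.26, -0.45 and -0.86 with siGALNT1, a difference of -0.91 (standard error 0.25). The groups did not overlap for either gene, and siGALNT1 array 3 was the lowest for both. SLC2A11, a hexose transporter, had levels of -2.06, -2.65 and -2.65 with siControl and of -3.27, -3.95 and -3.91 with siGALNT1, a difference of -1.26 (standard error 0.35). A dimmer probe of SLC2A11 did not share this, with a difference of 0.20, so its transcripts were not read alike.

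**Figure D2:**
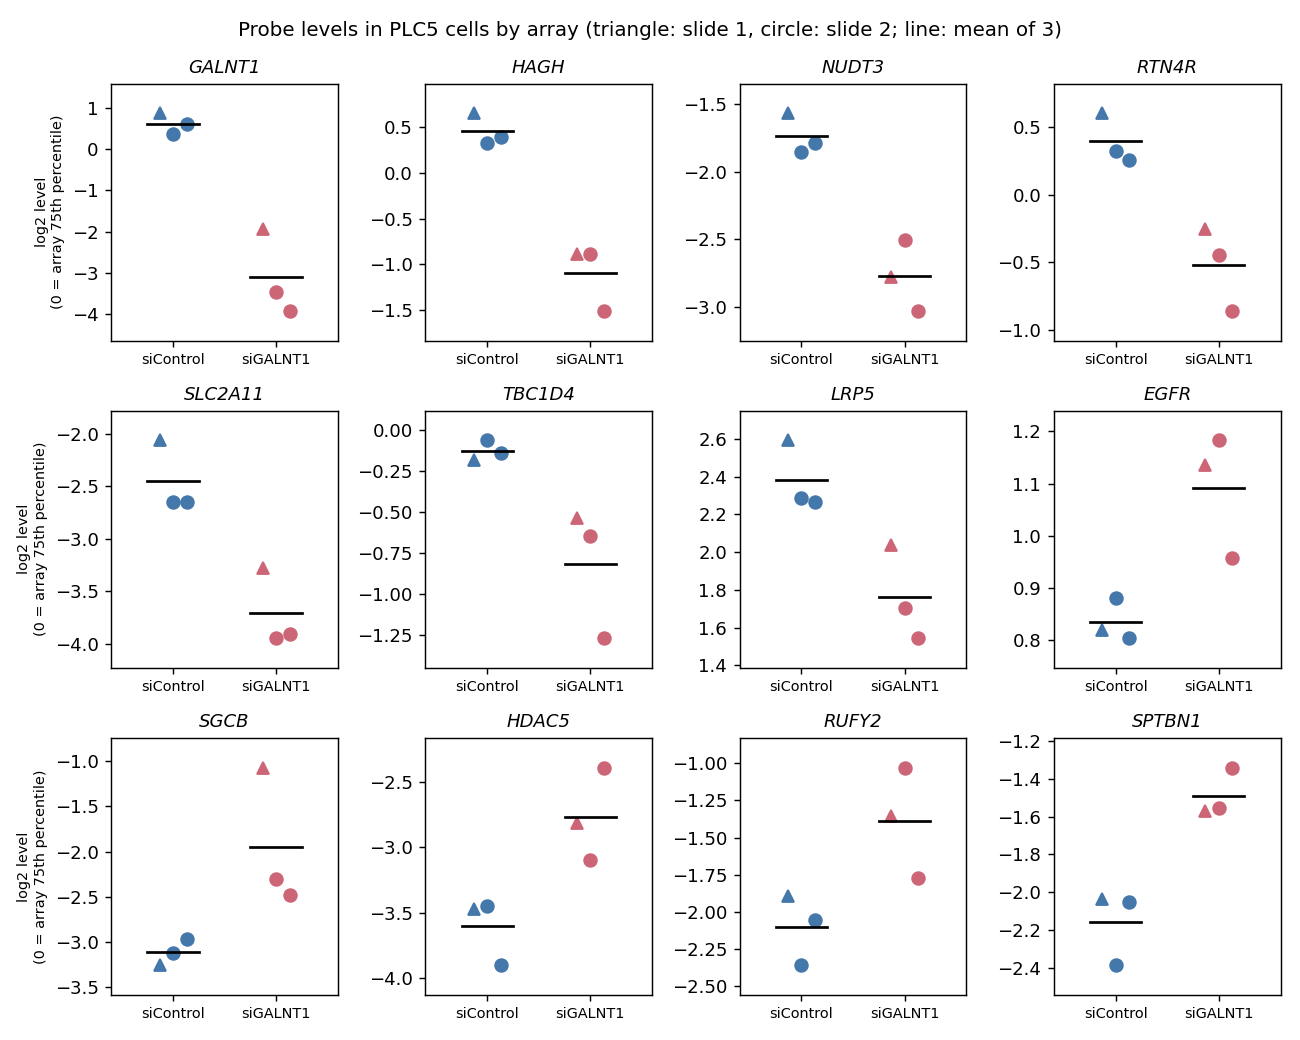
Log2 level (y axis, 0 is the array's 75th percentile) of 12 genes on the 3 siControl and 3 siGALNT1 arrays of PLC5 cells, with triangles for slide 1, circles for slide 2 and a line for the mean of 3. GALNT1, HAGH, NUDT3, RTN4R, SLC2A11, TBC1D4 and LRP5 are lower and SGCB, HDAC5, RUFY2, SPTBN1 and EGFR higher with siGALNT1 without overlap. The differences run from -3.72 for GALNT1 to 1.16 for SGCB, and the smallest is 0.26 for EGFR.

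Of the 15 lower genes with the largest differences among those well above background on all 6 arrays, several were noncoding RNAs. RNU12, the small nuclear RNA of the minor spliceosome, had levels of 4.45, 4.10 and 4.09 with siControl and of 3.97, 1.77 and 3.45 with siGALNT1, so that array 2 set most of the difference of -1.15. Leaving out siGALNT1 array 2 gave -0.51 for RNU12. SNORA2C, a small nucleolar RNA, had a difference of -1.03, and the noncoding transcripts SOD2-OT1 and LARRPM had differences of -0.91 and -0.85. Protein-coding genes of this set were TMEM132C at -1.03, TTC9B at -1.09, DAPL1 at -1.21 and C6orf132 at -1.004. Other counted probes of DAPL1 and C6orf132 gave smaller differences, of -0.21 for DAPL1 and from -0.81 to -0.19 for C6orf132. The olfactory receptor OR10G8 and the pseudogene OR7E91P had differences of -1.16 and -0.94. Such genes have near-identical copies, so their probes may read more than 1 locus. OR10G8 was -0.73 without siGALNT1 array 1 and OR7E91P -0.47 with normexp. Some of these differences were uneven between slides. Within slide 1 and slide 2 they were -0.15 and -1.33 for OR7E91P and -0.32 and -1.655 for DAPL1. For LARRPM they were -0.35 and -1.10, and for OR10G8 -1.99 and -0.74. The limma adjusted p was 1.00 for each of these genes.

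The higher genes were fewer, and 6 of them were well above background on all 6 arrays without overlap between the groups. SGCB, a sarcoglycan of the dystrophin complex, had levels of -3.25, -3.12 and -2.96 with siControl and of -1.07, -2.30 and -2.48 with siGALNT1. Array 1 stood highest, and the difference of 1.16 (standard error 0.34, limma adjusted p = 1.00) was 2.18 within slide 1 and 0.65 within slide 2. HDAC5, a class II histone deacetylase, had levels of -3.47, -3.45 and -3.90 with siControl and of -2.82, -3.10 and -2.39 with siGALNT1, a difference of 0.84 (standard error 0.31). The other 4 were MTERF1, a mitochondrial transcription terminator, at 0.89, RUFY2, a protein of endosomes, at 0.72, ANKRD13C at 0.67 and PRELID3A, a mitochondrial lipid carrier, at 0.66. The difference of MTERF1 was 0.09 within slide 1 and 1.30 within slide 2, and a dimmer probe of ANKRD13C gave 0.18. SGCB was 0.72 without siGALNT1 array 1, and MTERF1 was 0.57 without siGALNT1 array 3 and 0.44 with normexp.

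The same genes were then looked up in HA22T cells, whose siControl and siGALNT1 arrays were separate from those of PLC5. Of the 99 genes lower in PLC5, 75 were counted in HA22T, and 10 of these (13.3%) were lower past the criterion there too, beside 166 of all 16239 genes counted in both lines (1.02%). The 10 genes were 6.02% of the 166. Without GALNT1, the siRNA target, 9 of 74 genes (12.2%) were lower past the criterion there. The 75 genes as a set did not follow PLC5, since 30 of them (40%) were below 0 in HA22T, beside 63.5% of all genes. Their median difference there was 0.10, beside -0.10 over all genes, and 2 (2.67%) were higher past the criterion. None (0) of 31 counted genes higher in PLC5 was higher past the criterion in HA22T, where 1.46% of all genes were. The 10 genes were GALNT1, HAGH, SLC2A11, NUDT3, RTN4R, TBC1D4, TBC1D22B, TTYH3, STRBP and OR56A1 (-0.84, and -0.22 with normexp), the last 3 named after their values were seen. HAGH was lower by -1.95 in HA22T, SLC2A11 by -1.51, NUDT3 by -1.44 and RTN4R by -0.94. TBC1D4 was at -1.53 there and TTYH3 at -1.15, so the order of the genes was not that of PLC5. TTYH3, a chloride channel of the tweety family, had a difference of -0.74 in PLC5, and TTYH3 and TBC1D4 each came to -0.46 without siGALNT1 array 3. STRBP, an RNA-binding protein, had -0.77 and -0.97, but lacked a value on siGALNT1 array 3 and came to -0.37 in PLC5 with that spot kept. Each of the 10 genes was lower within slide 1 and within slide 2 of PLC5. They were chosen on these same arrays, and slide 1 holds 1 PLC5 array per group, so this is a description only. Without siControl array 1, or among genes well above background on all 6 arrays of each line, 6 genes were lower in both lines. The lines share the estimate of the spread in the fit, and the same siRNA pool was used in both.

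**Figure D3:**
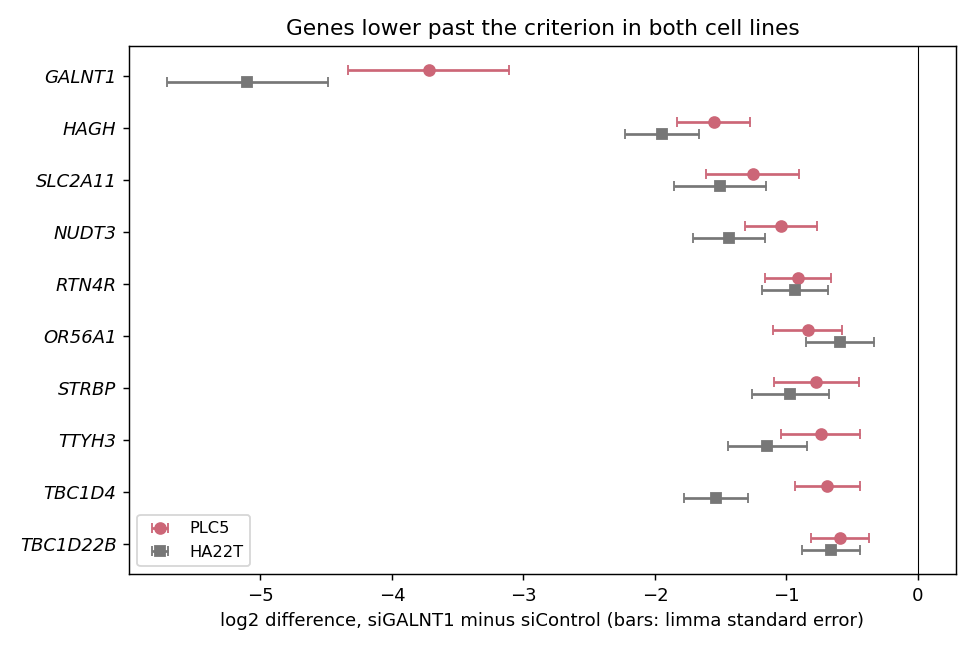
Log2 difference between siGALNT1 and siControl (x axis) with the limma standard error (bars) in PLC5 (circles) and HA22T (squares) for the 10 genes that were lower past the criterion in both lines. GALNT1 leads with -3.72 and -5.10, and HAGH follows with -1.55 and -1.95.

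The difference between the lines was tested directly. None (0) of 39100 probes had a limma adjusted p below 0.05 for it, and 952 (2.43%) had an unadjusted p below 0.05. TBC1D4, a Rab GTPase-activating protein of glucose transporter traffic, had levels of -0.18, -0.06 and -0.14 with siControl and of -0.53, -0.64 and -1.27 with siGALNT1. Its difference was -0.69 in PLC5 and -1.53 in HA22T (limma adjusted p = 0.988 for the difference between the lines). SGCB was 1.16 in PLC5 and -0.53 in HA22T (limma adjusted p = 0.988), which also did not pass.

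The sequences upstream of GALNT1, the siRNA target, and of NUDT3 and RTN4R are shown as examples from the 10 genes lower in both lines. HAGH and SLC2A11, with larger differences than NUDT3 and RTN4R in both lines, are not shown. Whether transcription from these starts differed was not tested. They are the 250 bases before the transcript start in RefSeq (GRCh38.p14), read on the strand of the gene, 5′ to 3′. GALNT1 has 3 starts in that table, of which the one farthest upstream is shown (chr18:35580672-35580921, plus strand). NUDT3 (chr6:34392670-34392919, minus strand) and RTN4R (chr22:20268319-20268568, minus strand) have 1 start each. Capitals mark, on either strand, the GC box with the letters GGGCGG, the box named by its letters CCAAT, or the TATA box with the letters TATAAA.
GALNT1: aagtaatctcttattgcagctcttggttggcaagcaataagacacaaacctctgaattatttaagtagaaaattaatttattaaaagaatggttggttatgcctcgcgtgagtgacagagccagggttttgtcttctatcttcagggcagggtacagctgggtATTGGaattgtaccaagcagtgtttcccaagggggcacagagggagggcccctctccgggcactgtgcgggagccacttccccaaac
NUDT3: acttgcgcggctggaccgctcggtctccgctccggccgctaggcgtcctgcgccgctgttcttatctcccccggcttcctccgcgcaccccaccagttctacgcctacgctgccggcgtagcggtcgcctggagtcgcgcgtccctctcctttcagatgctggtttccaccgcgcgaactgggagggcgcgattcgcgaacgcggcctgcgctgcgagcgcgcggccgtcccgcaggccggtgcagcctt
RTN4R: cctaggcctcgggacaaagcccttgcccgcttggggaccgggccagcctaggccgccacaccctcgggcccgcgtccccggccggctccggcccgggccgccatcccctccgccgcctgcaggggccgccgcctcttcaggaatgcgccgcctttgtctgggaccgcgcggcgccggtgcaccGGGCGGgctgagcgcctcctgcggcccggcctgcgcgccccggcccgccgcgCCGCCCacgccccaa
The GALNT1 window has a G+C content of 47.2% and holds 1 CCAAT box, the RTN4R window has 80.8% and holds 2 GC boxes, and the NUDT3 window has 71.2% and holds none of the 3 motifs (0). Among 35116 promoter windows of this length, 42.6% hold a GC box, 32% a CCAAT box and 10.7% a TATA box. The motifs do not overlap in these windows, and a match of letters is a description only.

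The enzymes that share the step of GALNT1 were examined as a group. Of 20 GalNAc-transferases on the list, 16 had a value, and besides GALNT1 none (0) was past the criterion. The median difference of the group was 0.02, beside 0.03 over all genes, and turned to -0.07 without siGALNT1 array 2. The largest differences besides GALNT1 were -1.02 for GALNT5, -0.72 for GALNT8 and 0.53 for GALNT3. The value of GALNT5 rests on 5 arrays, since siGALNT1 array 3 was left out, and came to -0.34 with that spot kept. Leaving out siGALNT1 array 1 gave -0.05 for GALNT8 and 1.097 for GALNT3, and GALNT3 was 0.23 without siControl array 1 or siGALNT1 array 2. Without siGALNT1 array 3 GALNT8 was -1.42, and with normexp it was 0.0469. No other transferase had groups without overlap. Enzymes that extend the O-glycan had a median of -0.06 over 19 genes, 0 past the criterion, and this median turned to 0.0024 with normexp. ST6GALNAC4, a sialyltransferase of short O-glycans, was lower without overlap at -0.31, and FUT4, a fucosyltransferase, had -1.21 from siControl array 1 alone (-4.34 within slide 1 and 0.35 within slide 2). Mucins, the most heavily O-glycosylated proteins, had a median of -0.08, with 11 of 13 members below 0. MUC16 was past the criterion at -1.48, from levels of -4.33, -5.55 and -5.41 with siControl to -6.72, -6.92 and -6.07 with siGALNT1, but was well above background on only 2 and 1 of these arrays. With normexp its difference was -0.19. The siGALNT1 medians of the mucin list, from -0.30 to -0.09 relative to each gene's mean, lay below the siControl ones, from 0.04 to 0.11.

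EGFR, its relatives and their ligands had no member past the criterion (0 of 16), with a median of 0.01 that turned to -0.22 without siControl array 1 and to -0.20 without siGALNT1 array 3. EGFR itself had levels of 0.82, 0.88 and 0.80 with siControl and of 1.14, 1.18 and 0.96 with siGALNT1. All siGALNT1 arrays lay above all siControl arrays, and the difference was 0.26 (standard error 0.23, limma adjusted p = 1.00), beside 0.23 in HA22T. The other EGFR probes gave 0.26 and 0.72 with overlapping groups. EGF was dim, well above background on 1 siControl and 2 siGALNT1 arrays, with a difference of -0.35 (standard error 0.57). ADAM17, the sheddase that releases several EGFR ligands, was higher without overlap at 0.39. The largest differences of the list were NRG3 at -0.74 and HBEGF at 0.65, both with overlapping groups, and a dimmer NRG3 probe gave 0.71. Without siControl array 2 NRG3 was -0.04, and without siControl array 1 HBEGF was 0.08. Transcripts of the ERK response, which follow receptor activity, had a median of 0.07 over 25 genes with 0 past the criterion. The endocytosis and sorting machinery that carries receptors to lysosomes had a median of 0.10 over 37 genes, with 0 past the criterion and 0 without overlap. Differences in this list ran from -0.36 for CLTC, the clathrin heavy chain, to 0.42 for CBLB, a ubiquitin ligase of receptors. CLTC lacked a value on siGALNT1 array 3 and was -0.01 without siControl array 2, and CBLB was 0.13 without siGALNT1 array 2.

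Regulators of vesicle traffic held 2 genes past the criterion, both lower, beside 0.568% of all genes. Both are on the study's list for PLC5, which was chosen on these same arrays, so their count is not independent evidence. Among 57 Rab and Arf GTPases and regulators, the Rab GTPase-activating proteins TBC1D4 and TBC1D22B were lower, TBC1D22B at -0.59 from levels of -1.22, -1.54 and -1.12 with siControl to -1.70, -1.96 and -2.001 with siGALNT1. The median of that list was 0.06, and -0.04 without siGALNT1 array 2. Ras regulators had a median of 0.06 over 42 genes with 0 past the criterion. The actin and spectrin cytoskeleton had 0 of 70 past the criterion, although SPTBN1, a spectrin, was higher without overlap at 0.67 (standard error 0.39) from -2.04, -2.39 and -2.05 to -1.57, -1.55 and -1.34. Tubulins (0 of 27), integrins (0 of 33), junction genes (0 of 35), matrix genes (0 of 33) and matrix proteases (0 of 22) had none past the criterion, with medians from 0.01 to 0.07. Genes of the epithelial to mesenchymal switch had a median of -0.09 over 17 genes, which turned to 0.02 with normexp. Keratins and other intermediate filaments had 14 of 21 genes below 0 and a median of -0.07, which came to 0.00 without siGALNT1 array 3, and KRT19 was past the criterion as described above.

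Among developmental pathways, TGF-beta and BMP genes had 4 members that were higher without overlap, beside the 2.16% of all genes. These were the receptor BMPR2 at 0.64, the ligands BMP4 at 0.50 and BMP6 at 0.39, and TGFBI, a matrix protein induced by TGF-beta, at 0.35. The ligand TGFB3 was past the criterion at 0.78, but siControl array 3 was left out for it and the difference was 0.41 with that spot kept. The median over 33 genes was 0.17, with 27 of them above 0, and it ranged from 0.05 to 0.33 when 1 array was left out. In HA22T the median of this list was -0.11, beside -0.10 over all genes there. In the Wnt pathway (40 genes, median 0.02), the co-receptor LRP5 was lower at -0.62, from 2.59, 2.29 and 2.26 to 2.04, 1.70 and 1.54 without overlap. TNFRSF19, a target of the pathway, was past the criterion at 1.15, and its difference was 2.64 within slide 1 and 0.41 within slide 2. Notch (31 genes, median 0.09), IGF and insulin (29 genes, median 0.11) and Hippo and YAP targets (22 genes, median 0.17) had none past the criterion. DLL1, a Notch ligand, was higher without overlap at 0.64, from -4.74, -4.74 and -4.58 to -4.40, -3.83 and -3.91.

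Liver and inflammatory genes gave a similar picture. Plasma proteins of hepatocytes (47 genes) had a median of 0.08 and hepatocyte transcription factors (23 genes) of 0.04, with 0 past the criterion in each. The first median came to -0.05 without siGALNT1 array 2 and the second ranged from -0.06 to 0.07 when 1 array was left out and was -0.01 with normexp. Oncofetal genes (28 genes, median 0.01) and drug metabolism (36 genes, median 0.02) lay near 0. AFP, the fetal albumin used as an HCC marker, had levels of -4.01, -4.34 and -4.28 with siControl and of -4.90, -4.75 and -5.34 with siGALNT1, lower without overlap by -0.79 (standard error 0.40, limma adjusted p = 1.00), and by -1.20 in HA22T. With normexp the PLC5 difference was -0.28. Interferon-induced genes, which can respond to double-stranded RNA, had a median of -0.0037 over 42 genes, which turned to 0.02 with normexp, and 0 were past the criterion. Their median was -0.32 in HA22T. Inflammatory and NF-kB genes had a median of 0.08, and their siGALNT1 array medians, from 0.00 to 0.15, all lay above the siControl ones, from -0.16 to 0.00. In that list IL6, an inflammatory cytokine, was past the criterion at -0.73, from -4.29, -3.65 and -4.36 to -5.08, -4.93 and -4.49, while BIRC3, an inhibitor of apoptosis, was higher without overlap at 1.00 but spread from -2.07 to -0.39 among siControl arrays. IL6 was -0.30 with normexp, and BIRC3 was 0.48 without siControl array 2. The RNA interference machinery itself had 0 of 17 genes past the criterion, with TNRC6A at 0.64 and DICER1 at 0.60.

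Growth programs varied more between arrays than between groups. Mitosis genes had a median difference of 0.19, with 87.9% of 58 genes above 0, and replication genes had 0.13 over 50 genes. Relative to the mean of each gene, the mitosis medians were 0.43, -0.59 and -0.14 on siControl arrays 1 to 3 and 0.60, 0.00 and -0.28 on siGALNT1 arrays 1 to 3. The siControl arrays alone thus spanned 1.02, and both arrays of slide 1 stood highest. Ribosomal proteins (77 genes, median 0.14, 94.8% above 0), replication-dependent histones (46 genes, 0.16), splicing factors (52 genes, 0.11) and proteasome subunits (34 genes, 0.08) also had array 1 highest in each group and siControl array 2 lowest of all 6. Without siGALNT1 array 1 the mitosis median was -0.05 and the ribosomal one -0.03, and without siControl array 2 they were -0.07 and -0.04. NRF2 antioxidant genes had a median of 0.20 over 27 genes, with 25 above 0, led by the thioredoxin reductase TXNRD1 at 0.45 and the pentose phosphate enzyme TALDO1 at 0.44. The array medians of this list interleaved, with 0.16, -0.37 and 0.00 for siControl and 0.18, 0.18 and -0.17 for siGALNT1, and the median difference was 0.02 without siControl array 2 and 0.05 without siGALNT1 array 1. The unfolded protein response (35 genes, 0.13), heat shock genes (35 genes, 0.12), p53 targets (28 genes, 0.11), cholesterol synthesis (34 genes, 0.09), fatty acid oxidation (35 genes, 0.09) and the respiratory chain (66 genes, 0.05) had 0 genes past the criterion. Glycolysis and the hypoxia response had a median of 0.10 over 37 genes. GAPDH, a glycolytic enzyme, had a difference of 0.17 (standard error 0.27).

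**Figure D4:**
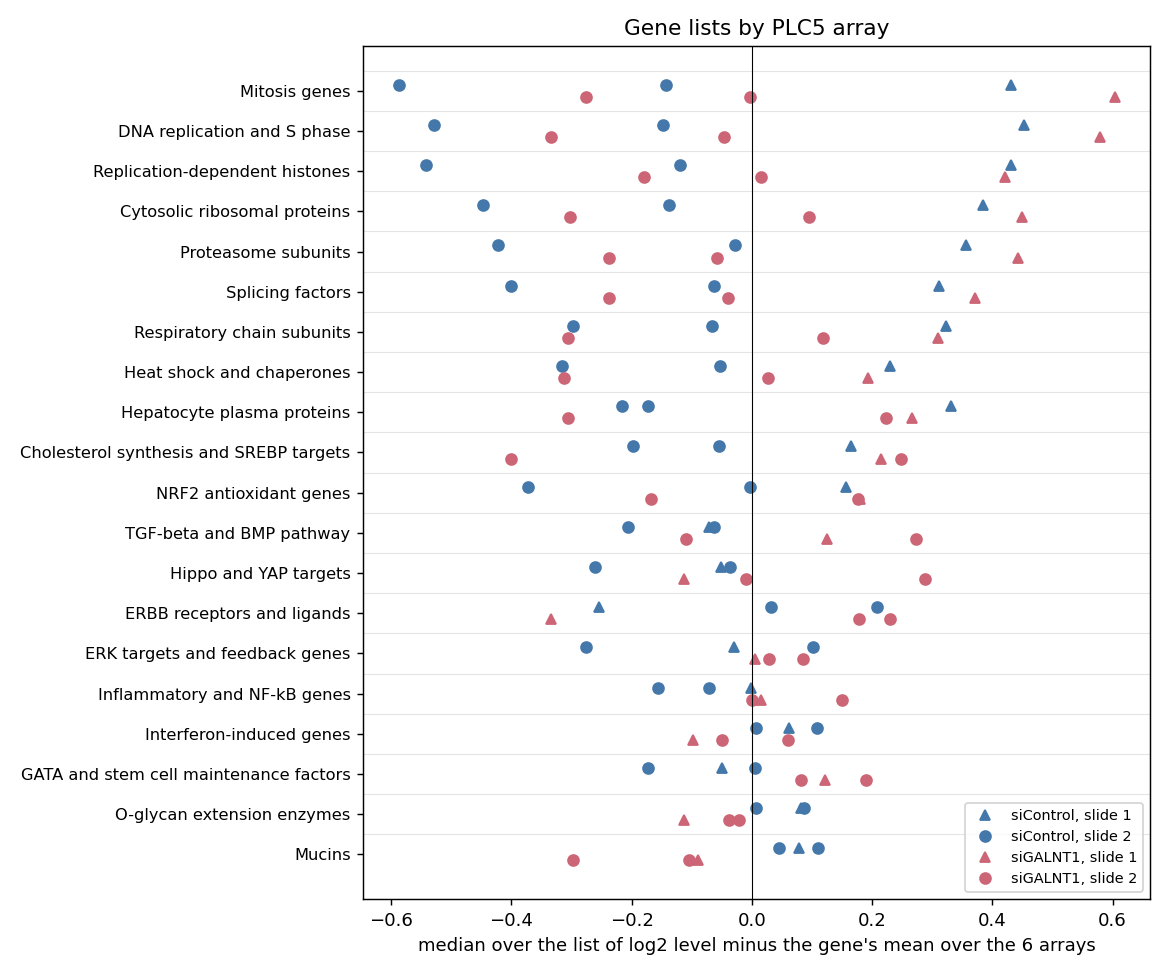
Median over the genes of 20 lists of the log2 level minus the mean of the gene over the 6 PLC5 arrays (x axis), with blue points for siControl, red for siGALNT1, triangles for slide 1 and circles for slide 2. Mitosis genes run from -0.59 to 0.60 with both groups interleaved, and the groups separate in the mucin, O-glycan extension, NF-kB and GATA lists only among those drawn.

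Over the 49 pathway and function lists together, 1682 genes had a value, and 12 of them were past the criterion, 5 higher and 7 lower (0.713%, beside 0.82% of all genes). Further lists had medians near 0 or slightly higher, namely receptor tyrosine kinases (29 genes, 0.01), peptide signaling receptors (48 genes, 0.02), apoptosis regulators (36 genes, -0.04), metallothioneins (12 genes, -0.06) and histone deacetylases with TET and DNA methyltransferases (33 genes, 0.15). No gene was past it in 38 lists, 1 gene was in 9 lists and 2 genes were in 2 lists. The median was above 0 in 42 of the 49 lists, while 57.1% of all genes were above 0. In 45 lists the siControl arrays differed from each other by more than the groups did. The array medians of the groups separated in 4 lists. They were higher with siGALNT1 for the NF-kB list and for GATA and stem cell maintenance factors, and lower for mucins and O-glycan extension enzymes. If the arrays were interchangeable, about 0.1 of the lists would separate over both directions, so 4 of 49 is no excess. In the NF-kB list the nearest medians were 0.00089 on siGALNT1 array 3 and -0.00098 on siControl array 1. In the GATA list, the siGALNT1 medians of 0.12, 0.19 and 0.08 lay above the siControl medians of -0.05, -0.17 and 0.01, although GATA3 was at 0.71 and GATA1 at -0.74, each without overlap between the groups. Both are dim factors of blood lineages and epithelia, with siControl means of -4.87 and -3.80. Leaving out 1 array turned the sign of the median in 30 of the 49 lists.

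The genes that the study listed for PLC5 were chosen on these same arrays, so their counts are not independent evidence of direction. Of 28 listed genes, 21 had a value. On their brightest probes, 1 was higher and 4 lower past the criterion, beside 0.252% and 0.568% of all genes. The higher gene was HDAC5, and the lower ones were NUDT3, TBC1D4, LRP5 and TBC1D22B. Groups did not overlap for 4 higher and 8 lower genes, beside 2.16% and 1.28% of all genes, which adds GATA3, DLL1 and SPTBN1 on the higher side and IAPP at -0.79, CARTPT at -0.68, CTF1 at -0.63 and GATA1 on the lower side. IAPP, CARTPT and CTF1 encode secreted peptides and a cytokine, and all 3 were dim. With normexp they came to -0.42, -0.26 and -0.23, and GATA1 to -0.30 and GATA3 to 0.41. MYADM, a membrane protein, had -0.98 on its brightest probe, which lacked siControl array 1, and -1.05 without overlap on the other. For CCL4, a chemokine, the brighter probe gave -0.03 and the dimmer one 0.77, so its direction depends on the probe. FGD5 also differed by probe, with -0.15 from 2 arrays of each group on the brighter probe and 2.39 without overlap on a far dimmer one. These dimmer probes of CCL4 and FGD5 were past the criterion, and so was the other MYADM probe. BCAR1, DENND2A, SMAP1, SSH1, TBCK and TET1 had differences from -0.08 for BCAR1 to 0.26 for TET1 on their brightest probes, with overlapping groups. Dimmer probes of TET1 and SSH1 were higher without overlap, at 0.87 and 0.65. DGKZ, GRM5, LLGL1, PLEKHG4, PLEKHG7, SRGAP3 and VAV1 had no value here.

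By kind of transcript, 39 of 15667 protein-coding genes were higher and 78 lower past the criterion (0.747% in all). Long noncoding RNAs had 5 higher and 11 lower of 992 (1.61%), and fewer of them were well above background on all 6 arrays, 69.7% against 84.2% of the protein-coding genes. Small nucleolar RNAs had 0 higher and 2 lower of 254 (0.787%), and transcribed pseudogenes 0 and 5 of 468 (1.07%). Olfactory receptors, a family singled out after the values were seen, had 0 higher and 5 lower of 224 (2.23%). Of these 5, OR13G1 and OR1N1 had a spot left out as non-uniform. With the left-out spots kept they came to -0.98 and -0.40 and were not past the criterion.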

How the data were processed

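RNA of 12 samples was hybridised to single-color Agilent SurePrint G3 Human arrays. For each array the authors deposited the intensity of every spot, background-subtracted in the processed signal, with spot flags, from Feature Extraction (10.5.1.1 in the submitters' processing notes). A series table deposited by the authors, holding scaled log2 values, served as an alternative. Control spots and non-uniform outliers were dropped, the array's 75th percentile of processed signal was subtracted on the log2 scale, and spots of a probe were averaged. RefSeq accessions (table of GRCh38.p14) gave 28174 of 50599 probes 20503 symbols. The array annotation uses an older build, so probe coordinates were not used.

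All 4 groups entered 1 limma model (version 3.58.1, R 4.3.3; lmFit, eBayes) with no covariate. Benjamini-Hochberg adjustment covered 38070 counted probes. A probe detected in a single group passes this filter and had to differ. The test the study applied to its arrays is not given in the sources used here, so Student's test on the same values was an alternative. A gene was read from its brightest counted probe with values on 2 or more arrays of each group. The script was tested on simulated arrays. The number of arrays limits the precision. For replicates 1, 2 and 3, departures from the group mean correlated between siControl and siGALNT1 at 0.70, -0.04 and 0.18, so equal numbers were not taken as pairs.

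The members and gene lists were chosen with earlier results of these data known. Named genes are GALNT1, EGFR, EGF, GAPDH, the study's list, of every other list those past the criterion without overlap or its 2 largest differences, and up to 15 on each side among genes well above background on all 6 arrays. Others were named after their values were seen. Some items the rule names are not reported here. Alternatives covered background correction, scaling, filters, flags, blocks, weights, priors, tests and each array left out. A percentile over unflagged spots, an intensity trend, slide 2 alone, the count over both lines and the tally of left-out spots were chosen after seeing the data.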

Additional observations from a re-analysis of the deposited data

How the results depend on the processing

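In PLC5, 0 probes had an adjusted p below 0.05 in every alternative run but normexp, which gave 2, with GALNT1 among them at -3.38. GALNT1 stayed between -4.31 and -3.31. The counts past the criterion, 113 higher and 379 lower, moved by over 1.5 times as follows. Higher probes came to 203 without a filter on dim probes, 23 with all 6 arrays required, 173 with the slide as a block and 251 with the replicate number as a block (replicate block). Lower probes came to 101 with all 6 arrays required, 642 with array weights and 240 by the methods' t-test. Leaving out 1 array gave 109 to 228 higher and 182 to 1239 lower probes and 6 to 9 genes lower in both lines. The latter count was 10, and 6 with all 6 arrays required. Some differences changed sign, most of them near 0. With 1 array left out, EGF ran from -0.63 to 0.0925, CCL4 from -0.37 to 0.16, BCAR1 from -0.33 to 0.29, FGD5 from -0.83 to 0.52, SMAP1 from -0.13 to 0.22, SSH1 from -0.0331 to 0.24, TBCK from -0.0397 to 0.21 and TET1 from -0.26 to 0.89. On slide 2 alone FUT4 was 0.35, CCL4 0.10, BCAR1 0.0364, DENND2A -0.0082, SSH1 -0.0520 and TBCK -0.0644. Normexp gave 0.0469 for GALNT8 and 0.10 for CCL4, and quantile normalization 0.000900 for CCL4. Array weights gave 0.12 for BCAR1 and -0.0316 for TET1, and the mean over probes 0.37 for CCL4 and 1.64 for FGD5. The cause was not tested. The share of higher calls, 23%, was 24.6% to 27.3% when only the scaling changed and 31.4% in the deposited table, where the flagged spots were kept as well. The replicate numbers were not taken as pairs, and the main fit held no term for the slide. The replicate 1 arrays, which shared slide 1, did depart from their group means alike (correlation 0.70). The replicate block moved the lower probes to 483. The difference between the lines stayed at 0 probes. Dim probes and left-out spots limit most other calls.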
